A study of Mus musculus with 12 samples.

Results

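Integrin αv, encoded by Itgav, was deleted in mouse TH2 and TH1 cells, and the comparison described here asks for which transcripts the effect of that loss differed between both subsets. For each gene the effect of the deletion was the mean of log2(CPM + 1) in Itgav KO libraries minus that in control libraries, where CPM is a gene's read count scaled by the library's total. The TH1 effect was then subtracted from the TH2 effect. A positive difference of effects marks a gene that stood relatively higher after Itgav loss in TH2 than in TH1 cells, whichever of the cultures moved. The members were 9121 of the 26202 genes in the deposited table. They were every gene at 10 CPM or more in at least 3 of the 12 libraries. The choice used no group labels. As each group also held 3 libraries, a gene high only in an Itgav KO group could pass. At the limit, the third highest value was 10.01 CPM in the lowest gene inside and 9.99 CPM in the highest gene outside.

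The study asked what αvβ3 integrin contributes to TH2 differentiation, and it sequenced RNA from 4 groups of 3 libraries. The groups were TH2 Itgav KO, TH2 control, TH1 Itgav KO and TH1 control. All of them started from naive CD4+ T cells of the mouse spleen, cultured for 5 days on anti-CD3 with anti-CD28 and IL-2. TH2 cultures also received IL-4 and an antibody against IFNγ, and TH1 cultures IL-12 and an antibody against IL-4. Control mice carried Cd4 CreERT2, a tamoxifen-dependent Cre recombinase driven from the Cd4 locus, and Itgav KO mice carried the same Cre with floxed Itgav alleles. The study's culture methods include 4-hydroxytamoxifen, the drug that activates this Cre, but they do not tie a dose or time to the sequenced cultures, and no source used here gives the ages of the mice. Live CD4+ cells were sorted, and no source used here describes a gate on αv. Cells that had kept the integrin could therefore remain in the KO libraries. The labels name no mouse or culture behind a library, and p-values therefore measure the spread between libraries, which may be technical.

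αv pairs with β3 and with other β chains at the cell surface to form receptors for extracellular matrix proteins and osteopontin, and ligand binding is passed on inside the cell through talin, kindlin and kinases of the focal adhesion family. TH1 and TH2 cells are alternative fates of the same naive helper cell. IL-12 and the factor T-bet drive TH1 cells to make IFNγ, while IL-4 and GATA3 drive TH2 cells to secrete IL-5 and IL-13 besides IL-4 itself. A gene that is silent in a subset cannot fall there, so its difference of effects largely repeats the effect in the other subset. Genes expressed in both control groups were therefore kept apart from genes absent in either of them.

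The libraries held between 6344186 and 13312234 reads in genes, so that 3 reads, taken as the smallest readable count, corresponded to between 0.225 and 0.473 CPM. Itgav (chr2:83724397-83806916 in GRCm38) measured 55.2, 43.5 and 60.5 CPM in TH2 Itgav KO libraries, against 249.5, 195 and 313 CPM in TH2 control libraries. It measured 42.8, 21.3 and 28.1 CPM in TH1 Itgav KO libraries, against 227, 228 and 154 CPM in TH1 control libraries, so that the groups did not overlap in either subset. Of the 7 T cell markers listed in the file, 7 were measured, with a summed level of 4916 to 5893 CPM. Of 10 markers of NK and CD8 T cells, 5 passed the filter and 4 (Ncr1, Klrb1c, Klra8 and Gzmk) were at 0 in every library. Their summed level was 38.3 to 56.8 CPM in TH2 Itgav KO and 26.6 to 51.1 CPM in TH2 control libraries, and 121 to 147 CPM in TH1 Itgav KO and 109 to 161 CPM in TH1 control libraries, overlapping in both subsets. Of 14 myeloid markers 1 passed the filter, and Lyz2, Csf3r and S100a9 were at 0 in every library. The 8 B cell markers in the file, of which only Ebf1 passed, summed to 26.9 to 39.3 CPM in TH2 Itgav KO and 21.6 to 48.5 CPM in TH2 control libraries, which overlapped, and to 6.46 to 12.6 CPM in TH1 Itgav KO and 21.1 to 37.2 CPM in TH1 control libraries, which did not. The part of these markers in the results was not tested. TH2 libraries were more dispersed than TH1 libraries: TH2 control replicate 2 and TH2 Itgav KO replicate 3 lay at opposite ends of the second principal component (11.2% of the variance), and TH2 control replicate 1 gave 5.84% of its reads to the ribosomal RNA gene Rn45s, against 0.751% to 2.30% in the other libraries. In bulk RNA, fewer cells expressing a gene and less RNA in each such cell cannot be told apart.

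The effects of Itgav loss differed between TH2 and TH1 cells for 37 genes, which is 0.406% of those tested. This and every other call is an adjusted p below 0.05 in limma after Benjamini-Hochberg adjustment over all 9121 genes. The difference was positive in 24 genes (0.263%) and negative in 13 (0.143%), with a median absolute size of 1.32 and a range of 0.69 to 3.59 on the log2 scale. The median over all genes tested was 0.04, and 53% of them had a positive difference. With TMM scaling the same comparison gave 26 calls, all among the 37, and these split evenly into 13 positive and 13 negative. At an unadjusted p below 0.05 there were 1002 genes (11% of those tested). Set against control, Itgav loss changed 327 genes in TH2 cells (3.59%), of which 175 (1.92%) were higher and 152 (1.67%) lower, and 77 genes in TH1 cells (0.844%; 30 higher and 47 lower). The fit gave every group of a gene the same spread, although TH2 libraries were more dispersed than TH1 libraries. The order reversed, with more calls in TH1 than in TH2 cells, when libraries were weighted by their reliability. It also reversed without TH2 control replicate 2 and TH2 Itgav KO replicate 3. These counts therefore do not show in which subset more genes changed.

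A difference of effects can arise in several ways, and the 37 genes were sorted by them. The effect was itself called in TH2 cells alone for 22 genes, in TH1 cells alone for 12, in both subsets for 2 (Ccr7 and Egr1) and in neither for 1 (Ccna2). The point estimates of both effects had opposite signs in 27 of the 37 genes and the same sign in 10. Among the positive differences, the only called effect was a rise in TH2 cells for 13 genes and a fall in TH1 cells for 10. Among the negative ones, it was a fall in TH2 cells for 9 and a rise in TH1 cells for 2. Below, a change in TH2 or TH1 cells only means that the effect in the other subset was not called. It does not mean that the other subset was unchanged. Of the 327 genes called in TH2 cells the difference was called in 24 (7.34%), and of the 77 called in TH1 cells in 14 (18.2%). Over all genes the difference was the less precise quantity, with a median standard error of 0.43 against 0.30 for either effect alone.

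**Figure D1:**
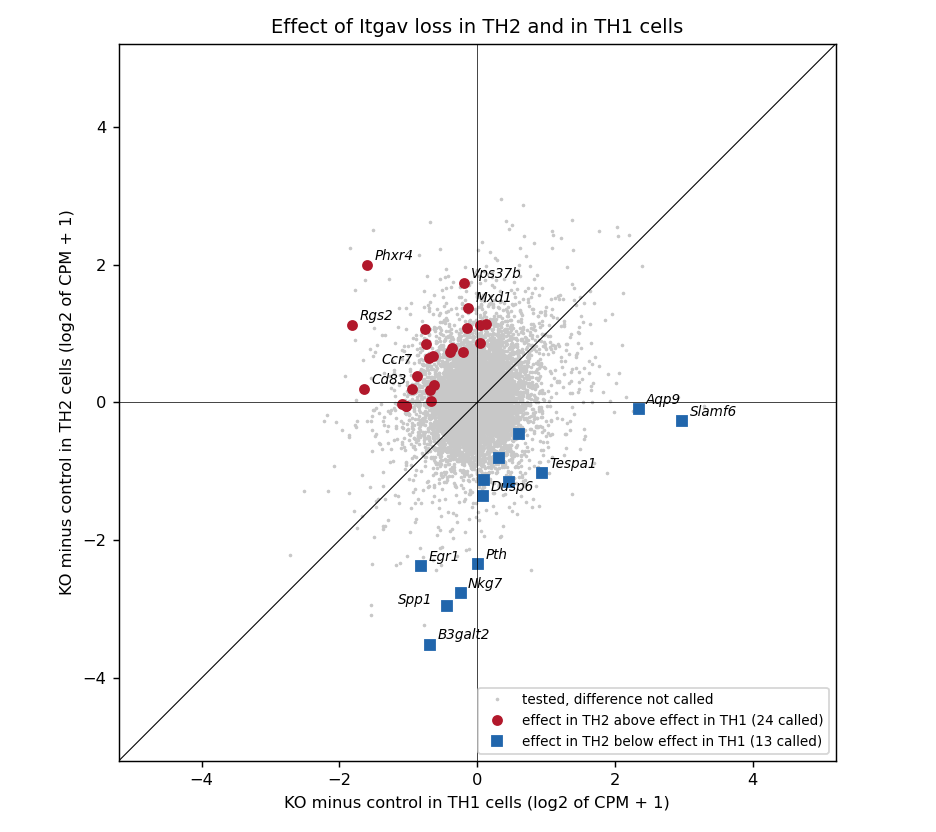
Effect of Itgav loss in TH2 cells (vertical axis) against its effect in TH1 cells (horizontal axis), each as Itgav KO minus control in log2(CPM + 1), for the 9121 genes tested. Red circles are the 24 genes whose TH2 effect was called above the TH1 effect, blue squares the 13 called below it, grey dots the rest, and the diagonal marks equal effects.

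The direction of these differences changed less between settings than their calls. All 37 kept their direction in each of the 24 alternative settings, with an unadjusted p of at most 0.00823. The alternatives reuse the libraries in which the 37 were selected, so a kept direction is no independent support. Of the 37, 36 lost their call when at least 1 library was left out. Ccr7 was called in all 12 such fits, Tuba1c in 11, and Egr1, Tuba1b, Il12rb2 and Rgs2 in 9 each, while the median gene was called in 3. The number of calls fell to 2 without TH1 control replicate 1, to 3 without TH1 control replicate 2 and to 4 without TH1 Itgav KO replicate 3, and it was 50 without TH2 control replicate 1. Without TH2 control replicate 2 and TH2 Itgav KO replicate 3 together there were 37 calls, of which 19 were among those reported. When the variance was not modelled as a function of expression level, 1 gene was called (Zbtb10) and none of the 37.

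**Figure D2:**
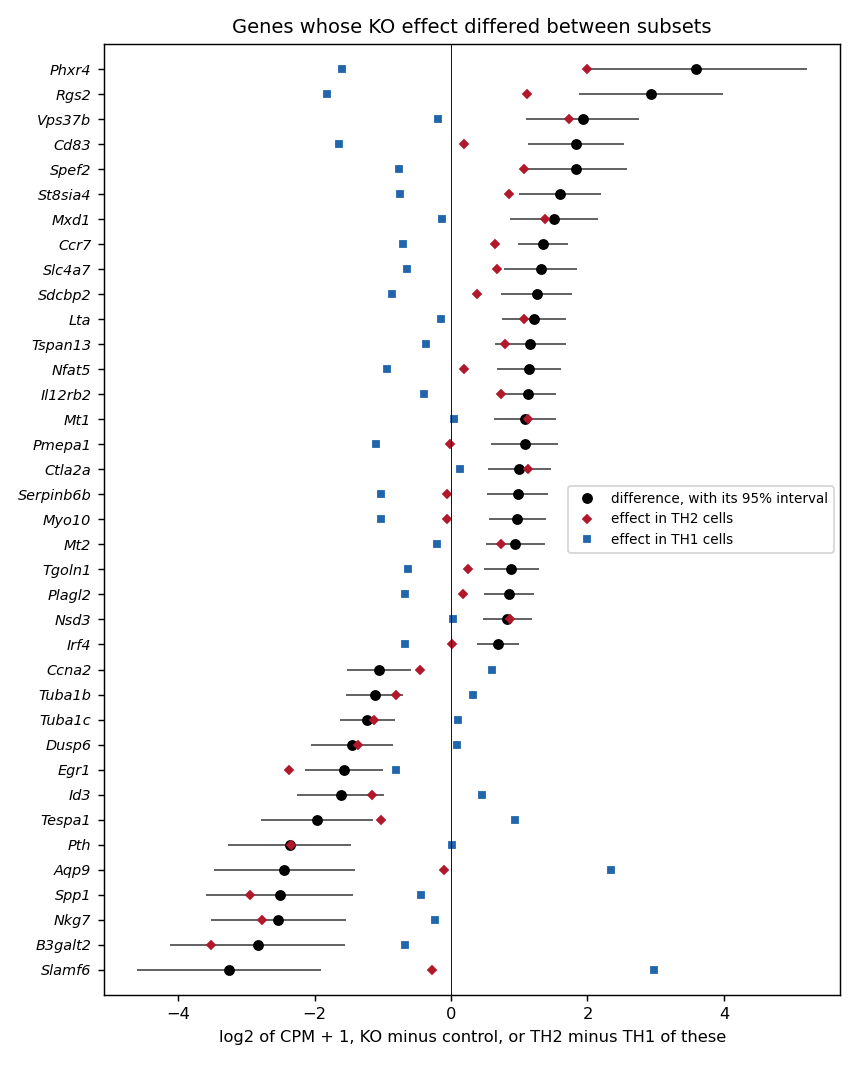
The 37 genes with a called difference, ordered by its size. Black circles are the difference of effects (TH2 minus TH1) with its 95% interval, red diamonds the effect of Itgav loss in TH2 cells and blue squares that in TH1 cells, all in log2(CPM + 1). Differences ran from 3.59 for Phxr4 to -3.25 for Slamf6.

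Of the 37 genes, 34 were expressed at 10 CPM or more in both control groups, a class of 7735 genes of which they made up 0.44%. They are described first, by role.

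Ccr7, the chemokine receptor that guides naive and central memory T cells to lymph nodes, had the lowest p of all genes. Among the called genes, it alone had both a called fall in TH1 cells and a called rise in TH2 cells. It measured 599, 601 and 472 CPM in TH2 Itgav KO libraries, against 386, 322 and 359 CPM in TH2 control libraries. In TH1 cells the order was reversed, with 774, 784 and 706 CPM in TH1 Itgav KO libraries, against 1169, 1233 and 1289.8 CPM in TH1 control libraries. Neither pair of groups overlapped. The effects were 0.64 in TH2 cells (adjusted p = 0.005) and -0.70 in TH1 cells (adjusted p = 0.00419), and their difference was 1.35 ± 0.17 (SE, 3 libraries a group; adjusted p = 0.00147, limma). The means of the Itgav KO groups, 558 ± 73.9 CPM in TH2 and 755 ± 42.5 CPM in TH1 cells, were closer to each other than those of the control groups, 356 ± 32.4 CPM in TH2 and 1231 ± 60.5 CPM in TH1 cells (SD, n = 3 each). The gene lies at chr11:99144196-99155077 (GRCm38, minus strand). Over the 15 measured genes of a naive and memory list, Ccr7 was the single call and the median difference was 0.07. The difference was called in 0.406% of all genes. Of the 15, 6 had an unadjusted p below 0.05 for it, as did 11% of all genes.

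The receptor chain Il12rb2, which makes T cells responsive to IL-12 and is a mark of TH1 cells, had the same order of levels. Its levels (chr6:67291318-67376188) were 539.9, 512 and 483 CPM in TH2 Itgav KO libraries, against 315, 369 and 251 CPM in TH2 control libraries. They were 2179.8, 2058 and 1880.4 CPM in TH1 Itgav KO libraries, against 2685, 3137 and 2282 CPM in TH1 control libraries. The TH2 effect of 0.73 passed the test (adjusted p = 0.00474), the TH1 effect of -0.40 did not (adjusted p = 0.235), and the difference was 1.13 ± 0.20 (adjusted p = 0.0214). Groups did not overlap in either subset. GENCODE transcripts of Il12rb2 share 38% of their stretches of 50 bases, the read length, with Serbp1, which overlaps it on the opposite strand and whose own difference was 0.07 ± 0.15.

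Lta encodes lymphotoxin α, a TNF family cytokine made by TH1 cells, and rose in TH2 cells. It measured 179, 239 and 313 CPM in TH2 Itgav KO libraries, against 105, 116 and 117 CPM in TH2 control libraries. In TH1 cells the groups overlapped, at 632, 759 and 682 CPM in Itgav KO libraries and 797, 762 and 735 CPM in control libraries. The difference of effects was 1.22 ± 0.23 (adjusted p = 0.023). Nkg7, a granule membrane protein of cytotoxic and TH1 cells, went the other way. Its levels were 1.11, 4.1 and 0.964 CPM in TH2 Itgav KO libraries, against 22, 25.1 and 10.2 CPM in TH2 control libraries, and the TH2 effect was -2.77 (adjusted p = 8.07e-05). TH1 cells, in which the gene was far more abundant, gave 332, 413 and 488 CPM in Itgav KO and 455, 478 and 508 CPM in control libraries, which overlapped, and the difference was -2.53 ± 0.47 (adjusted p = 0.0245). Within the list of TH1 identity genes, 19 were measured, of which Il12rb2 and Lta differed upwards and Nkg7 downwards. Over all genes the difference was called in 0.406%. At an unadjusted p below 0.05 there were 9 of the 19, against 11% of all genes. The list's median difference was 0.09, with -0.11 under quantile scaling.

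Other surface and adaptor genes of lymphocytes differed through TH1 cells. Cd83, an activation marker of the immunoglobulin superfamily, measured 26.6, 16.3 and 19.3 CPM in TH1 Itgav KO libraries, against 58.8, 76 and 62.4 CPM in TH1 control libraries. The TH1 effect was -1.64 (adjusted p = 0.00112). In TH2 cells Cd83 overlapped between groups at 175, 194 and 118 CPM in Itgav KO and 166, 115 and 141 CPM in control libraries, and the difference of effects was 1.83 ± 0.33 (adjusted p = 0.023). Sdcbp2, a syntenin that binds membrane proteins through PDZ domains, fell in TH1 cells only (effects 0.38 in TH2 and -0.87 in TH1; difference 1.25 ± 0.25, adjusted p = 0.0326). Pmepa1, an inhibitor of TGF-β signalling that TGF-β itself induces, had 59.6 ± 3.57 CPM in TH1 Itgav KO and 129 ± 10.7 CPM in TH1 control libraries, against 191 ± 3.3 CPM and 195 ± 33.5 CPM in TH2 Itgav KO and TH2 control libraries (SD, n = 3 each). Its difference of effects was 1.08 ± 0.23 (adjusted p = 0.0458), and it was the single call among 16 measured genes of TGF-β and activin signalling. Over all genes 0.406% were called. Of the 16, 4 had an unadjusted p below 0.05 for the difference, as did 11% of all genes.

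The genes that T cell receptor stimulation switches on within hours had more negative than positive effects in both subsets, with a few departures between subsets. Of 30 measured members of an activation and immediate early list, 24 had a negative effect in TH2 cells and 24 in TH1 cells (medians -0.57 and -0.44), against 46.6% and 50% of all genes. Of the 30, 8 fell significantly in TH2 cells and 3 in TH1 cells, where 1.67% and 0.515% of all genes did. The list includes Egr1, Nr4a1 and Bcl2a1b, which the study picked from these samples. All of these are among the called falls in TH2 cells, and Egr1 is among those in TH1 cells. For these members the counts are no independent evidence of a direction. The difference of effects was called for 3 members, against 0.406% of all genes, with Egr1 and Dusp6 lower and Irf4 higher, and the list's median difference was -0.20.

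Egr1, an immediate early zinc finger transcription factor, was the single gene with a called difference whose fall was called in both subsets. It measured 84, 85 and 78.4 CPM in TH2 Itgav KO libraries, against 434, 517 and 359 CPM in TH2 control libraries. It measured 81.7, 128 and 109.5 CPM in TH1 Itgav KO libraries, against 174, 233 and 154 CPM in TH1 control libraries. No groups overlapped, and the effects were -2.38 in TH2 cells and -0.81 in TH1 cells (adjusted p = 2.7e-07 and 0.0492), a difference of -1.57 ± 0.27 (adjusted p = 0.0214). The Itgav KO libraries of both subsets overlapped in their Egr1 level, whereas TH2 control libraries were all above TH1 control libraries. Dusp6, a phosphatase that switches off ERK, fell in TH2 cells only. It had 177, 174 and 184 CPM in TH2 Itgav KO libraries, against 386, 587 and 430.3 CPM in TH2 control libraries. TH1 libraries overlapped at much lower levels, 26.8, 38.2 and 29.3 CPM in Itgav KO and 33.8, 24.8 and 29.7 CPM in control libraries, and the difference was -1.45 ± 0.29 (adjusted p = 0.0326).

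Irf4, a transcription factor that scales with T cell receptor signal strength and is needed for TH2 cells, showed the reverse. In TH1 cells it fell to 604, 605 and 578 CPM in Itgav KO libraries, against 964, 986 and 895 CPM in control libraries (effect -0.67, adjusted p = 0.0014). In TH2 cells the groups overlapped within a narrow range, at 1088, 1136 and 1068 CPM in Itgav KO and 1119.8, 1112 and 1016 CPM in control libraries, an effect of 0.02 with a 95% interval of -0.19 to 0.24. The difference was 0.69 ± 0.15 (adjusted p = 0.039), the smallest of all those called. Nfat5, a relative of the calcium-dependent NFAT factors that responds to osmotic stress, and Rgs2, which shortens signalling by G protein-coupled receptors, also fell in TH1 cells only. Rgs2 measured 119, 183 and 137 CPM in TH1 Itgav KO libraries, against 535, 543 and 449.9 CPM in TH1 control libraries. Its TH2 groups overlapped because 1 control library was high, with 44, 64 and 91.3 CPM in Itgav KO and 15.8, 21.1 and 70.2 CPM in control libraries, and the difference was 2.93 ± 0.51 (adjusted p = 0.0214). For Nfat5 the effects were 0.20 in TH2 and -0.94 in TH1 cells and the difference was 1.14 ± 0.23 (adjusted p = 0.0326).

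A pair of genes linked to antigen receptor signalling fell in TH2 cells while their estimates were positive in TH1 cells. Id3 encodes an inhibitor of E protein transcription factors that antigen receptor signals induce. It measured 15.1, 18.1 and 20.9 CPM in TH2 Itgav KO libraries, against 33.1, 50.5 and 41.5 CPM in TH2 control libraries. It measured 232, 206 and 187 CPM in TH1 Itgav KO libraries, against 131, 168 and 155 CPM in TH1 control libraries, without overlap in either subset. The TH2 effect was -1.16 (adjusted p = 0.00412), the TH1 effect 0.46 (adjusted p = 0.476) and the difference -1.62 ± 0.31 (adjusted p = 0.0245). Tespa1, a protein that couples the T cell receptor to calcium release during thymocyte development, gave effects of -1.03 in TH2 and 0.94 in TH1 cells and a difference of -1.97 ± 0.40 (adjusted p = 0.0326). Here the library values were 29.3, 33.7 and 27.4 CPM in TH2 Itgav KO libraries, against 64.3, 77.8 and 48.2 CPM in TH2 control libraries, and 36.6, 43.5 and 30.4 CPM in TH1 Itgav KO libraries, against 21.9, 17.1 and 16.9 CPM in TH1 control libraries.

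**Figure D3:**
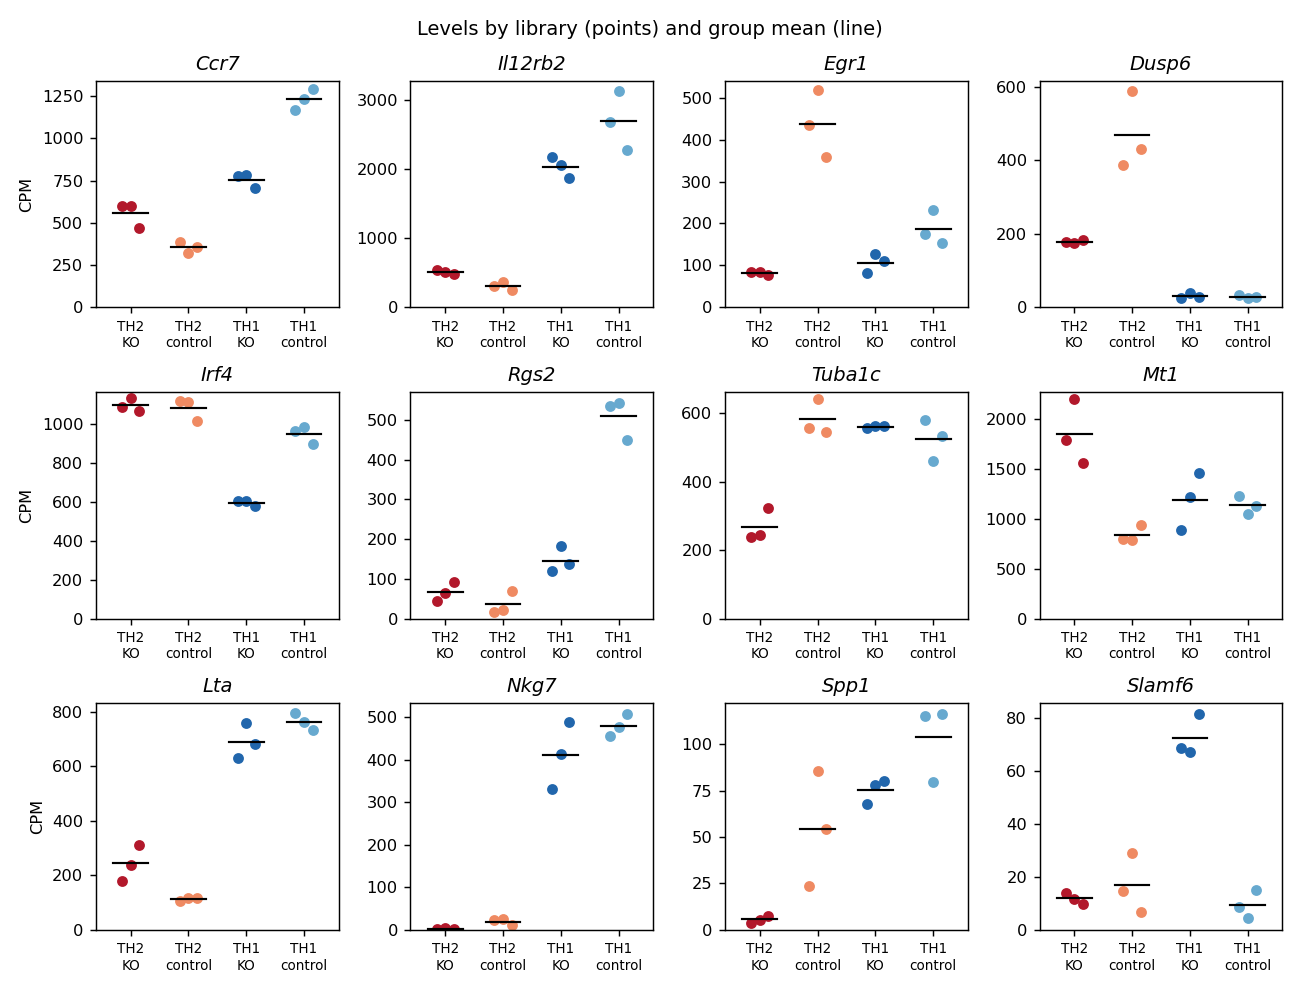
CPM of 12 genes with a called difference of effects, in each library (points) with the group mean (line). Groups run from TH2 Itgav KO and TH2 control to TH1 Itgav KO and TH1 control, and every axis starts at 0. Ccr7 rises in TH2 and falls in TH1 Itgav KO cells, Egr1 falls in both, Dusp6, Tuba1c, Nkg7 and Spp1 fall in TH2 cells, Irf4 and Rgs2 fall in TH1 cells, and Slamf6 rises in TH1 cells.

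Of the 13 called negative differences, 3 were in genes of the spindle and the cell cycle. α-tubulins build the microtubules of the mitotic spindle and of the resting cytoskeleton. Tuba1c (chr15:99029891-99038110) measured 238, 245 and 324 CPM in TH2 Itgav KO libraries, against 559, 642 and 546 CPM in TH2 control libraries. TH1 levels overlapped at 556, 564 and 562 CPM in Itgav KO and 579.6, 462 and 533 CPM in control libraries, and the difference of effects was -1.23 ± 0.19 (adjusted p = 0.0137). Tuba1b (chr15:98931425-98934565) measured 568, 539 and 408 CPM in TH2 Itgav KO libraries, against 987, 901 and 747 CPM in TH2 control libraries, and 1120.3, 1013 and 1022 CPM in TH1 Itgav KO libraries, against 721, 901 and 918 CPM in TH1 control libraries. It fell in TH2 cells (-0.80, adjusted p = 0.00265), its TH1 effect was 0.32 (adjusted p = 0.437) and the difference was -1.12 ± 0.20 (adjusted p = 0.023). The 2 genes are near-identical neighbours, and 75.1% of the 50-base stretches of Tuba1b transcripts and 52.7% of those of Tuba1c also occur in another gene, so reads may have been split between them. Ccna2, the cyclin of S phase and entry into mitosis, had the only called difference that rested on no called effect. It measured 139, 143 and 116 CPM in TH2 Itgav KO libraries, against 194, 155 and 199 CPM in TH2 control libraries, and 307, 234 and 264 CPM in TH1 Itgav KO libraries, against 167, 171 and 188 CPM in TH1 control libraries. The effects of -0.45 in TH2 and 0.61 in TH1 cells had adjusted p = 0.122 and 0.0792, and the difference was -1.06 ± 0.22 (adjusted p = 0.039).

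The other genes of mitosis leaned the same way without passing the test singly. In a list of mitosis and kinetochore genes, 29 of 29 measured members had a negative difference, where 47% of all genes did, with a median of -0.78 against 0.04 for all genes. The median effect was -0.44 in TH2 cells (26 of 29 negative, with 53.4% of all genes positive) and 0.30 in TH1 cells (26 of 29 positive). Ccna2 was the single called member for the difference. Of the effects in TH2 cells, 3 were called lower, as were 1.67% of all genes, and 13 had an unadjusted p below 0.05 (19.1% of all genes did). In TH1 cells 0 were called in either direction, and 8 had an unadjusted p below 0.05 (10.1% of all genes did). The summed level of the list was 4514 to 5874 CPM in TH2 Itgav KO and 5626 to 7295 CPM in TH2 control libraries, which overlapped, and 5879 to 7550 CPM in TH1 Itgav KO and 4930 to 5575 CPM in TH1 control libraries, which did not. Leaving out each library in turn moved the median difference between -0.94 and -0.64. For the difference, 17 of the 29 members had an unadjusted p below 0.05, as did 11% of all genes. Genes of a list are not independent replicates.

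A list of DNA replication genes gave 27 of 28 measured members with a negative difference, where 47% of all genes did, and a median of -0.56. The median effects were -0.38 in TH2 and 0.29 in TH1 cells, and no member was called for the difference or for either effect. At an unadjusted p below 0.05 there were 14 for the difference, 10 for the TH2 effect and 5 for the TH1 effect. Over all genes these shares were 11%, 19.1% and 10.1%. The summed level of this list was 2828 to 3467 CPM in TH2 Itgav KO and 3603 to 4399 CPM in TH2 control libraries. In TH1 cells it was 5206.4 to 5745 CPM in Itgav KO and 4121 to 5205.6 CPM in control libraries, so that the groups only just separated. The range of the median difference over the libraries left out in turn was -0.72 to -0.48. Mki67, the common proliferation marker, chosen after its values were seen, gave -0.41 ± 0.20 with a 95% interval of -0.83 to 0.01 (adjusted p = 0.459). Mxd1, which competes with MYC for its partner MAX and is linked to leaving the cell cycle, differed in the positive direction. Its levels were 70.6, 47.9 and 89.1 CPM in TH2 Itgav KO libraries, against 26.2, 19.6 and 31.1 CPM in TH2 control libraries. TH1 groups overlapped, with 214, 251 and 266 CPM in Itgav KO and 296, 254 and 253 CPM in control libraries, and the difference was 1.51 ± 0.31 (adjusted p = 0.0339).

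**Figure D4:**
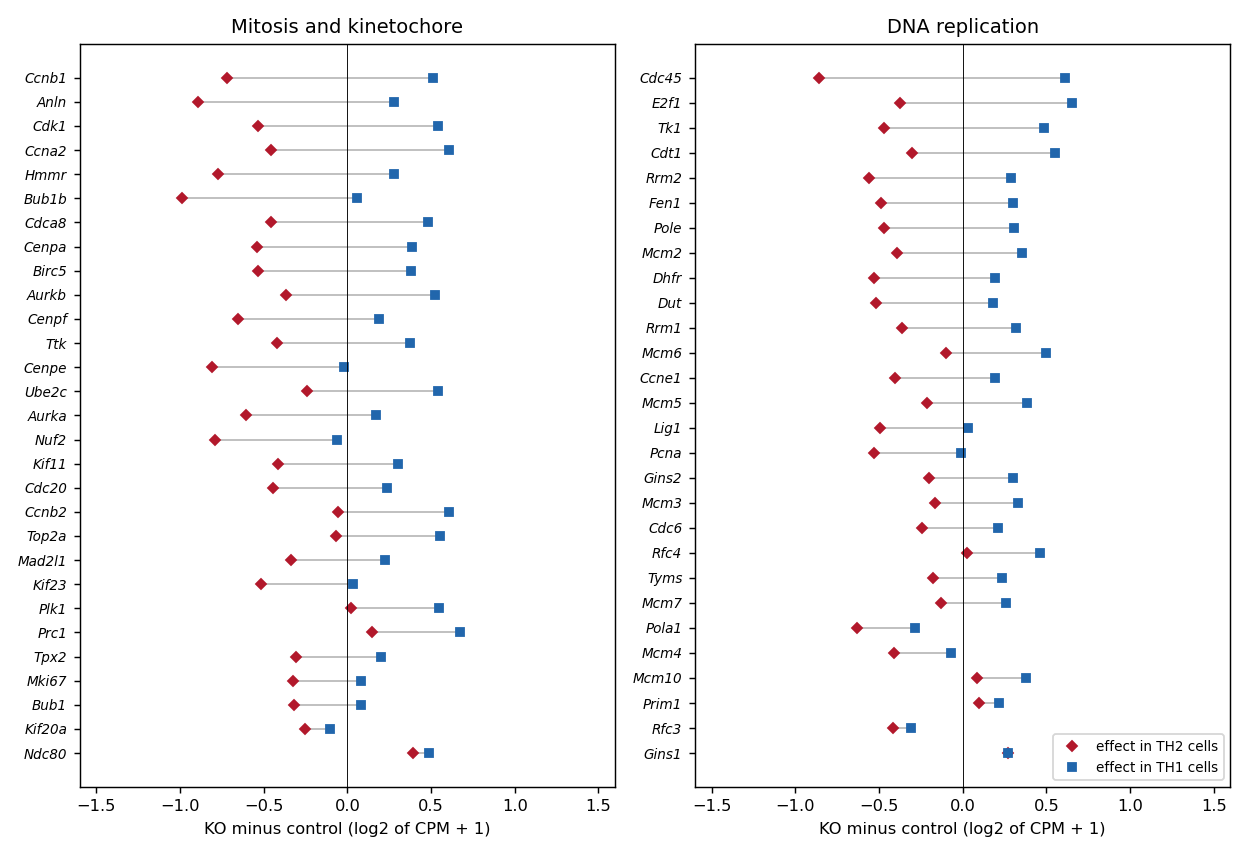
Effect of Itgav loss (Itgav KO minus control, log2(CPM + 1)) in TH2 cells (red diamonds) and in TH1 cells (blue squares) for the 29 measured mitosis and kinetochore genes and the 28 measured DNA replication genes, ordered by the difference of effects. The red diamond lies left of the blue square in 29 of 29 mitosis genes and in 27 of 28 replication genes, and Ccna2 is the single member whose difference was called.

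Many cell cycle promoters carry the CCAAT box, an element read by the factor NF-Y, and the sequences before the start of 3 mitosis genes, Ccnb1, Cdk1 and Anln, were searched for it. Ccnb1 and Cdk1 are shown because they held the element, and all 3 were chosen after their values were seen. Ccnb1, the cyclin that partners Cdk1 in mitosis, had means of 59.8 CPM in TH2 Itgav KO and 102 CPM in TH2 control libraries, 102 CPM in TH1 Itgav KO and 71.3 CPM in TH1 control libraries, and a difference of -1.24 ± 0.38 (adjusted p = 0.177). Cdk1 gave a difference of -1.07 ± 0.29 (adjusted p = 0.123). The 150 bases before RefSeq's start (GRCm38.p6, minus strand for both, chr13:100786487-100786636 and chr10:69352913-69353062) are given 5′ to 3′ along the gene, with capitals marking CCAAT on either strand.
Ccnb1: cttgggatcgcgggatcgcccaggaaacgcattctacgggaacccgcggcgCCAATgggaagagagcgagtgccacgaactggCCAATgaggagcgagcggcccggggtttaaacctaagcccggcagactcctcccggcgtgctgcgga
Cdk1: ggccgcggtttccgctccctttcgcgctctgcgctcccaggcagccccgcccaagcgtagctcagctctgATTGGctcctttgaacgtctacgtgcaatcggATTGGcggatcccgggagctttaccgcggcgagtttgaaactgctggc
Each holds 2 matches, and the window of Anln held 0. CCAAT or its reverse complement occurred in 20 of the 25 mitosis genes with a RefSeq entry and in 25.3% of the 27025 promoter windows of that length, which is a description of the letters and no evidence on binding.

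The metallothioneins Mt1 and Mt2, small cysteine-rich proteins that bind zinc and copper, lie beside each other on chromosome 8 and differed in the positive direction. Both are among the 8 called genes outside the rule for named genes and were chosen after their values were seen. The 150 bases before RefSeq's annotated starts (GRCm38.p6, plus strand, chr8:94178939-94179088 and chr8:94172468-94172617) are shown with capitals on matches to the core of the metal response element, read by the zinc sensor MTF1 and searched as TGCACNC or TGCGCNC on both strands.
Mt1: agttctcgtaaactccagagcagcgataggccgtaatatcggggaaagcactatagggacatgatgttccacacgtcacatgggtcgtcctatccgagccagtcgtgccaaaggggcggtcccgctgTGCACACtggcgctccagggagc
Mt2: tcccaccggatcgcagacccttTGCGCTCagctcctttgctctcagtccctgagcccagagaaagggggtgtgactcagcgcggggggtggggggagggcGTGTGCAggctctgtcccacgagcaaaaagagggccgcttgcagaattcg
The window of Mt1 held 1 match and that of Mt2 held 2, and 14.7% of all 27025 windows held at least 1. So did 7 of the 28 windows matched to called genes. GENCODE starts Mt2 at 94172664, after the end of this window, so bases nearer that start were not searched. The counts hold for these windows only. Mt1 measured 1783, 2193 and 1553 CPM in TH2 Itgav KO libraries, against 791, 787 and 940.5 CPM in TH2 control libraries. In TH1 cells it overlapped between groups, at 882, 1219.7 and 1457 CPM in Itgav KO and 1227, 1041 and 1130.3 CPM in control libraries. The TH2 effect was 1.12 (adjusted p = 0.000228) and the difference 1.08 ± 0.22 (adjusted p = 0.0339). Mt2 measured 577, 627 and 594 CPM in TH2 Itgav KO libraries, against 361, 313 and 409 CPM in TH2 control libraries, and 437, 697 and 606 CPM in TH1 Itgav KO libraries, against 663, 661 and 647 CPM in TH1 control libraries. It rose in TH2 cells by 0.74 (adjusted p = 0.00733), and the difference of 0.94 ± 0.21 was close to the threshold (adjusted p = 0.0482). Transcripts annotated to another gene, Gm45774, hold 45.8% of the 50-base stretches of Mt2.

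Genes for secreted proteins, proteases and their inhibitors followed. Spp1 encodes osteopontin, itself an RGD-containing ligand of αvβ3. Its levels were 3.51, 5.52 and 7.58 CPM in TH2 Itgav KO libraries, against 23.3, 85.8 and 54.2 CPM in TH2 control libraries. In TH1 cells they overlapped at 67.6, 78.1 and 80.2 CPM in Itgav KO and 115, 79.9 and 116 CPM in control libraries. Spp1 fell by 2.95 on the log2 scale in TH2 cells (adjusted p = 8.49e-05), and the difference of effects was -2.51 ± 0.52 (adjusted p = 0.0339). It was the single call among 8 measured RGD ligands, whose median difference was 0.01, where 0.406% of all genes were called. Ctla2a, an inhibitor of cathepsin-like proteases, rose in TH2 cells to 3947, 2719 and 4579.7 CPM in Itgav KO libraries, against 1404, 1758 and 1887 CPM in control libraries, and its difference was 1.0 ± 0.22 (adjusted p = 0.0464). Of its transcripts, 25.8% of 50-base stretches also occur in another gene. Serpinb6b, an intracellular serine protease inhibitor, fell in TH1 cells only, to 240.3, 239 and 279 CPM in Itgav KO libraries, against 537, 592 and 430.2 CPM in control libraries, with a difference of 0.98 ± 0.22 (adjusted p = 0.0482). In a list of cytotoxic granule genes all 6 measured members had a positive difference (median 0.48), where 53% of all genes did. Serpinb6b alone was called, against 0.406% of all genes. Of the 6, 2 had an unadjusted p below 0.05 for the difference, as did 11% of all genes.

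Enzymes that build cell surface glycans differed in both directions. St8sia4 makes polysialic acid, which is also carried by CCR7. It measured 156, 157 and 159 CPM in TH2 Itgav KO libraries, against 111, 67.2 and 87.9 CPM in TH2 control libraries, and 105, 78.5 and 78.8 CPM in TH1 Itgav KO libraries, against 186, 133 and 126 CPM in TH1 control libraries, without overlap in either subset. Its effects were 0.85 (adjusted p = 0.0246) in TH2 and -0.75 (adjusted p = 0.102) in TH1 cells, and the difference was 1.59 ± 0.29 (adjusted p = 0.023). B3galt2, a galactosyltransferase, showed the deepest fall in TH2 cells among the called genes. It measured 1.29, 4.41 and 3.58 CPM in TH2 Itgav KO libraries, against 32, 53.1 and 46.7 CPM in TH2 control libraries. TH1 groups overlapped at 18.3, 13.9 and 8.05 CPM in Itgav KO and 29.2, 16.9 and 18.8 CPM in control libraries, and the difference was -2.84 ± 0.62 (adjusted p = 0.0458). B3galt2 lies within Cdc73 on the opposite strand, and no source used here says whether reads were counted by strand.

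Among genes of membrane traffic and transport, Slc4a7, a sodium bicarbonate cotransporter, had effects of 0.67 in TH2 and -0.64 in TH1 cells (difference 1.32 ± 0.26, adjusted p = 0.0326), of which the TH2 effect was called. Tspan13, a tetraspanin, likewise rose in TH2 cells (0.79, with -0.37 in TH1 cells; difference 1.16 ± 0.25, adjusted p = 0.0446). Vps37b, a subunit of the ESCRT-I complex that sorts membrane proteins for degradation, had 48.2, 51.5 and 26.7 CPM in TH2 Itgav KO libraries, against 8.17, 8.52 and 21.4 CPM in TH2 control libraries, and a difference of 1.93 ± 0.40 (adjusted p = 0.035). Its TH1 values were 370.2, 387 and 356 CPM in Itgav KO and 390.0, 419 and 468 CPM in control libraries, and 39.7% of its 50-base stretches also occur in another gene, mainly Hip1r, which overlaps it on the opposite strand. Myo10, a motor of filopodia that carries integrins to their tips, and Tgoln1, a protein that cycles through the trans-Golgi network, fell in TH1 cells only, with differences of 0.97 ± 0.20 and 0.89 ± 0.19 (adjusted p = 0.0353 and 0.0458). Myo10 measured 234, 236 and 249.6 CPM in TH1 Itgav KO libraries, against 589, 509 and 392 CPM in TH1 control libraries, while its TH2 means were 344 ± 16.7 CPM in Itgav KO and 358 ± 29.9 CPM in control libraries (SD, n = 3 each).

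The remaining nuclear and other genes were Nsd3, a histone methyltransferase, which rose in TH2 cells only (0.86 in TH2, 0.03 in TH1; difference 0.83 ± 0.17, adjusted p = 0.0377), and Plagl2, a zinc finger factor, which fell in TH1 cells only (0.17 in TH2, -0.68 in TH1; difference 0.85 ± 0.18, adjusted p = 0.0339). Spef2, a protein of sperm flagella and cilia, rose in TH2 cells (1.07 in TH2, -0.76 in TH1; difference 1.83 ± 0.36, adjusted p = 0.0326). Phxr4 had the largest positive difference, 3.59 ± 0.78, but also the widest interval (1.96 to 5.22; adjusted p = 0.0458). Its levels were low, at 22.9, 55 and 63 CPM in TH2 Itgav KO libraries, against 9.87, 6.81 and 15 CPM in TH2 control libraries, and 8.19, 1.42 and 8.4 CPM in TH1 Itgav KO libraries, against 33.9, 10.5 and 13.3 CPM in TH1 control libraries. Nsd3, Plagl2, Tgoln1, Myo10, Ctla2a and Nfat5, with Mt1 and Mt2, were named after their values were seen.

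In a further class, 475 genes were expressed in TH2 control cells and at 1 to under 10 CPM in TH1 control cells. Of them 2 (0.421%), Slamf6 and Aqp9, were called for the difference, against 0.406% of all genes. Both rose in TH1 cells, and the negative difference came mainly from that rise. Aqp9 was lower in TH1 than in TH2 control libraries, whereas for Slamf6 the control libraries of both subsets overlapped. Slamf6 (chr1:171917515-171953170), a self-binding receptor of the SLAM family found on naive and stem-like T cells, measured 68.8, 67.4 and 81.8 CPM in TH1 Itgav KO libraries, against 8.41, 4.43 and 14.9 CPM in TH1 control libraries. In TH2 cells it overlapped between groups, at 14, 11.5 and 9.92 CPM in Itgav KO and 14.6, 29.2 and 6.68 CPM in control libraries. The TH1 effect was 2.98 (adjusted p = 0.0014) and the difference -3.25 ± 0.65 (adjusted p = 0.0326). Aqp9, a channel for water and glycerol, measured 17.2, 30.1 and 22.3 CPM in TH1 Itgav KO libraries, against 4.84, 3.15 and 3.17 CPM in TH1 control libraries, and its TH2 groups overlapped at 44.1, 74.6 and 76.7 CPM in Itgav KO and 47.1, 98.5 and 67.5 CPM in control libraries (difference -2.44 ± 0.50, adjusted p = 0.0339). Pparg, a nuclear receptor of the TH2 programme, had the same pattern without a called difference. It rose in TH1 cells to 30.5, 17.6 and 31.5 CPM in Itgav KO libraries, against 8.92, 6.69 and 7.14 CPM in control libraries (adjusted p = 0.00112), and its difference was -1.40 ± 0.35 (adjusted p = 0.0843).

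Only 45 genes reached 10 CPM in TH2 control cells while staying under 1 CPM in TH1 control cells, and 46 showed the reverse. In the TH2 class 1 gene (2.22%) was called for the difference in limma and in the TH1 class 0, against 0.406% of all genes. In the TH1 class 6 of the 46 had an unadjusted p below 0.05, as did 11% of all genes. Median standard errors of the difference were 0.77 and 0.78 in these classes, against 0.39 in the genes expressed in both. The called gene was Pth, parathyroid hormone (chr7:113385580-113388570, GRCm38, minus strand), a calcium-regulating hormone that was abundant in TH2 control cells. It measured 427, 258 and 356 CPM in TH2 Itgav KO libraries, against 1296, 2079 and 1949 CPM in TH2 control libraries. In TH1 cells it was at 0.273, 0.304 and 0 CPM in Itgav KO and 0, 0.376 and 0.176 CPM in control libraries, which is 0.376 CPM at most. The TH2 effect of -2.35 (adjusted p = 0.000131) and the difference of -2.36 ± 0.43 (adjusted p = 0.023) are accordingly nearly the same number. The difference was no longer called without TH2 control replicate 2 and TH2 Itgav KO replicate 3 (adjusted p = 0.0973).

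Il5, a TH2 cytokine that sustains eosinophils, had the same arithmetic but was not called. It fell in TH2 cells to 78.9, 73.8 and 165 CPM in Itgav KO libraries, against 337, 701 and 576 CPM in control libraries (effect -2.37, adjusted p = 0.0021). TH1 libraries held at most 0.225 CPM. The difference was -2.36 ± 0.58, with a 95% interval of -3.56 to -1.16 and adjusted p = 0.0796. Il13, which drives mucus production and airway reactivity, fell in TH2 cells to 250.3, 189 and 223 CPM in Itgav KO libraries, against 651, 1229 and 1037 CPM in control libraries (adjusted p = 0.00953). A single TH1 control library held 3.88 CPM and the other 5 TH1 libraries at most 0.455 CPM. Its difference was -1.58 ± 0.61 (interval -2.86 to -0.30, adjusted p = 0.326). Il4 gave 0.97 ± 0.57 (interval -0.21 to 2.15, adjusted p = 0.55). Of 8 measured TH2 cytokines, 6 had a negative difference, where 47% of all genes did, and none was called. The median was -0.31, and 3 had an unadjusted p below 0.05, as did 11% of all genes.

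For Ifng, the hallmark cytokine of TH1 cells, the comparison rested on TH2 libraries with little of the transcript. TH1 cells gave 4288, 4573 and 4708 CPM in TH1 Itgav KO libraries, against 8190.4, 9985 and 9733 CPM in TH1 control libraries. These groups were far apart, but the fit shares its spread with TH2 libraries, which held 2.03, 3.94 and 1.65 CPM in Itgav KO and 2.65, 23.3 and 1.75 CPM in control cells, and the TH1 effect of -1.04 had adjusted p = 0.46. The difference was 0.16 ± 0.67 (adjusted p = 0.954). Without TH2 control replicate 2, the single TH2 library with over 4 CPM, and TH2 Itgav KO replicate 3, it was 1.32 with adjusted p = 0.0358. Ccl4, a chemokine of TH1 cells, changed in the same manner, with a TH1 fall to 56.1, 54.3 and 62 CPM in Itgav KO libraries, against 188, 206 and 188 CPM in control libraries, a difference of 1.47 ± 0.55 (adjusted p = 0.303) and 2.15 without these libraries (adjusted p = 0.0358). Ccl4 was named after its values were seen.

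For the lineage factors and for the targeted receptor the difference did not pass the test, and the intervals show how far it could lie from 0. Itgav itself gave 0.50 ± 0.35 (interval -0.23 to 1.23, adjusted p = 0.632) and its partner Itgb3 0.42 ± 0.43 (interval -0.48 to 1.32, adjusted p = 0.758). Gata3 gave -0.86 ± 0.30 (interval -1.47 to -0.24, adjusted p = 0.268), with 16, 28.5 and 21.7 CPM in TH1 Itgav KO and 14.2, 9.31 and 15.8 CPM in TH1 control libraries. Tbx21, which encodes T-bet, gave 0.17 ± 0.97, with an interval of -1.86 to 2.20 that leaves the sign undetermined. Its TH1 libraries did not overlap, at 158, 177 and 161 CPM in Itgav KO and 220, 253 and 272 CPM in control cells. As for Ifng, the fit shares its spread with TH2 libraries that held little of the transcript. These had 0.0924, 0 and 11.7 CPM in Itgav KO and 7.21, 0.454 and 1.75 CPM in control cells. Runx3, a partner of T-bet, rose in TH2 cells, where it measured 456, 324 and 283 CPM in TH2 Itgav KO libraries, against 233, 113 and 161 CPM in TH2 control libraries. Its TH1 effect was 0.00, and the difference was 1.09 ± 0.29 (interval 0.49 to 1.70, adjusted p = 0.107). Runx3, Il5 and the integrin chain Itga4 (1.76 ± 0.42, adjusted p = 0.0714) were called when libraries were weighted by their reliability, as was Pparg.

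Other genes named by rule did not pass the test for the difference. Isg20, an interferon-induced RNA exonuclease, rose in TH2 cells by 2.43 and in TH1 cells by 2.20 (difference 0.24 ± 0.63, interval -1.08 to 1.55). Gbp2, an interferon-induced GTPase named after its values were seen, gave 1.32 ± 0.31 (adjusted p = 0.0585). Nr4a1, an orphan nuclear receptor induced by antigen, gave -0.57 ± 0.34 (interval -1.27 to 0.13) and Bcl2a1b, a survival gene with close paralogues, -0.72 ± 0.40 (interval -1.56 to 0.11). Egfr, the epidermal growth factor receptor, gave 0.05 ± 0.73 with a wide interval of -1.46 to 1.56, whereas Thy1, a surface glycoprotein of all T cells, gave -0.04 ± 0.14 with a narrow one of -0.34 to 0.26. TH1 libraries held little Egfr, at 7.19, 0.101 and 0.805 CPM in Itgav KO and 7.39, 6.39 and 4.32 CPM in control cells.

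The gene lists outside the cell cycle held at most 3 called members each. Over all genes tested, 53% had a positive and 47% a negative difference. The difference was called in 0.406%, and 11% had an unadjusted p below 0.05 for it. Of 52 measured interferon response genes, 25 had a positive and 27 a negative difference (median -0.02), with positive median effects in TH2 (0.25) and TH1 cells (0.33) and no call for the difference, with 13 at an unadjusted p below 0.05. Glycolysis and hypoxia genes were alike in this (25 measured, median difference -0.02, median effects 0.43 in TH2 and 0.38 in TH1 cells, 0 called and 2 at an unadjusted p below 0.05). Targets of ATF4, the factor that raises amino acid supply under stress, had 18 of 22 members with a negative difference (median -0.38), and ribosome biogenesis genes 20 of 25 (median -0.28), in both cases with no member called and with 6 and 5 members at an unadjusted p below 0.05. Among p53 targets 11 of 14 were positive (median 0.32), again without a call (1 at an unadjusted p below 0.05), and the median was 0.04 without TH2 control replicate 2 and TH2 Itgav KO replicate 3. Sterol and fatty acid synthesis genes were divided, with 12 of 27 positive, a median of -0.08, 0 called and 3 at an unadjusted p below 0.05. The mTOR-regulated genes Egr1, Nr4a1, Bcl2a1b and Egfr, which the study picked from these samples and which are no independent evidence of a direction, had a median difference of -0.65, with 3 of 4 negative and Egr1 alone called. Integrin chains had 7 of 11 measured members with a negative difference (median -0.34, 0 called and 3 at an unadjusted p below 0.05), and TFH, TH17 and Treg genes 5 of 7 with a positive one (median 0.42, 0 called and 1 at an unadjusted p below 0.05). Within 20 Mb of Itgav on chromosome 2, 101 genes were tested and 0 were called for the difference. Of them 12 had an unadjusted p below 0.05, as did 11% of all genes.

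**Figure D5:**
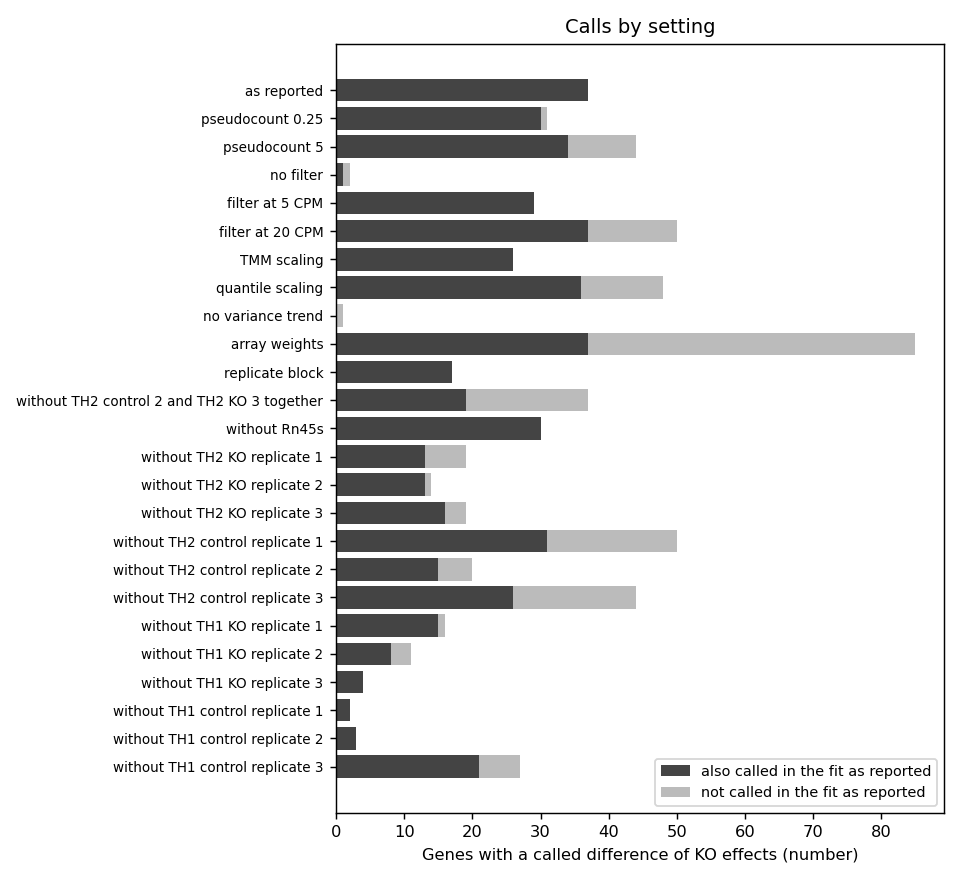
Number of genes with a called difference of effects in the fit as reported and in each alternative setting. Dark bars are calls shared with the 37 reported and light bars are other genes, and the counts run from 1 without a variance trend to 85 with library weights.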

How the data were processed

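RNA for 12 libraries was extracted with RNeasy Plus Micro columns, amplified with Ovation RNA-seq V2 and sequenced as single 50-base reads on an Illumina HiSeq. Per the submitters' processing notes, reads were trimmed with Trim Galore 0.50, aligned to GRCm38 with STAR 2.6.0a and tested with DESeq2 1.18.1. No source used here names the counting tool or its annotation. What the authors deposited is CPM with 0.0001 added to every value, and this offset was taken off. A deposited second sheet with identical values was not used. Low values were whole multiples of the CPM of 1 read, from which the depth of each library was read.

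Genes that reached 10 CPM in 3 libraries or more were analysed on log2(CPM + 1), a scale that understates the change of low genes, with limma 3.58.1 in R 4.3.3 (variance trend, a mean for each of 4 groups, 8 residual and 12.5 prior degrees of freedom, two-sided, Benjamini-Hochberg). The study's count model was replaced because the table holds CPM. The procedure was tested on simulated reads with the same spread for every gene and changes in TH2 Itgav KO libraries only. The real TH2 libraries were more dispersed than TH1 libraries, so this test does not give the error rate in these data. Genes were classed by the control means of both subsets, with 10 CPM as expressed and under 1 CPM as absent. Named genes were a fixed set of integrin and TH cell genes, the called genes with the largest differences (12 in each direction among genes expressed in both subsets, 8 among the others) at 20 CPM or more in the highest group, and up to 3 called or 2 uncalled members of each gene list. Genes outside this rule are marked as such. The members and lists were chosen with earlier results of these data known. The alternatives were other pseudocounts (0.25 and 5), filters (none, 5 and 20 CPM), scalings (TMM, quantile), no variance trend, library weights, a replicate block, leaving out Rn45s, and leaving out each library or a pair of TH2 libraries. Gene positions are from GENCODE M21 and sequences from RefSeq.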

Additional observations from a re-analysis of the deposited data

Results flagged for a closer look

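For the 37 genes below the effect of Itgav loss differed between TH2 and TH1 cells by limma's test of the difference itself, which is what singled them out. Values are the TH2 effect minus the TH1 effect in log2(CPM + 1), with 3 libraries in each group.

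The difference was positive for genes of signalling and transcription, at 2.93 for Rgs2, 1.51 for Mxd1, 1.14 for Nfat5, 0.85 for Plagl2, 0.83 for Nsd3 and 0.69 for Irf4. It was positive for receptors, cytokines and surface glycans, at 1.83 for Cd83, 1.59 for St8sia4, 1.35 for Ccr7, 1.22 for Lta, 1.16 for Tspan13, 1.13 for Il12rb2 and 1.08 for Pmepa1. Traffic and transport genes gave 1.93 for Vps37b, 1.32 for Slc4a7, 1.25 for Sdcbp2, 0.97 for Myo10 and 0.89 for Tgoln1. The remaining positive values were 3.59 for Phxr4, 1.83 for Spef2, 1.08 for Mt1, 1.0 for Ctla2a, 0.98 for Serpinb6b and 0.94 for Mt2.

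The difference was negative for genes of the spindle and cell cycle, at -1.06 for Ccna2, -1.12 for Tuba1b and -1.23 for Tuba1c. Genes linked to antigen receptor signalling gave -1.45 for Dusp6, -1.57 for Egr1, -1.62 for Id3 and -1.97 for Tespa1. Secreted, surface and granule genes gave -2.36 for Pth, -2.44 for Aqp9, -2.51 for Spp1, -2.53 for Nkg7 and -3.25 for Slamf6, and the galactosyltransferase B3galt2 gave -2.84. In Slamf6 and Aqp9 the value came from a rise in TH1 cells, and in Pth from a fall in the only subset that expressed it.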

How the results depend on the processing

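All 37 called differences kept their direction in all 24 alternatives, which reuse the libraries that selected them, but their calls did not hold as well. The uncalled differences of Isg20, Tbx21, Ifng, Egfr and Thy1 changed sign in at least 1 alternative. Without TH2 control replicate 2 and TH2 Itgav KO replicate 3 they were -0.69 for Isg20, -1.6 for Tbx21 and 0.01 for Thy1, and over the libraries left out in turn they reached -0.43 for Ifng and -0.55 for Egfr. The count of called differences was 2 with no filter, 1 without a variance trend, 85 with library weights and 17 with the replicate block, and it ran from 2 to 50 when each library was left out in turn. Among genes expressed in both control groups, where 34 were called, these counts were 1, 0, 74 and 15, and 2 to 45. Among genes absent in either control group, where 1 was called, the count was 0 with a pseudocount of 0.25, with no filter, without a variance trend and without TH2 control replicate 2 and TH2 Itgav KO replicate 3, 3 with a pseudocount of 5 or with library weights, and 0 to 2 over the libraries left out. The 327 calls in TH2 cells became 141 with no filter, 76 without a variance trend and 153 without the pair of TH2 libraries, and 158 to 383 over the libraries left out. The 77 calls in TH1 cells became 29 without a variance trend, 406 with library weights and 198 without the pair of TH2 libraries, and 26 to 124 over the libraries left out. With library weights, and without the pair of TH2 libraries, more genes were called in TH1 than in TH2 cells, the reverse of the fit as reported.

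Libraries of the same replicate number showed no strong shared deviation. Deviations correlated at -0.07 to 0.03 in the 18 same-numbered pairs and at -0.09 to 0.11 in the other 36 pairs. Such correlations cannot show whether same-numbered libraries shared a mouse or culture, which the labels do not say. The replicate block gave 17 calls, against 37 in the fit as reported. Count tests planned as alternatives were not run, since the table holds CPM with an added offset. With 3 libraries a group, a median standard error of 0.43 limits which differences can be called, and more so for genes absent in a subset.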
